A study of Homo sapiens with 20 samples.

Results

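EGFR, ERBB2 and ERBB3, the ligands HBEGF, TGFA, EREG and AREG, and the feedback inhibitors ERRFI1 and LRIG1 were examined for N6-methyladenosine (m6A) peaks in bladder cancer cells. A peak was taken for a gene when its summit, the base of highest enrichment, lay in an exon of that gene in any GENCODE 44 transcript (hg38). By this rule 84 of the 231465 called peaks belonged to 8 of the 9 genes, in 17 of the 43676 regions that result from merging the peak lists. AREG had none.

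The peaks came from methylated RNA immunoprecipitation sequencing (MeRIP-seq), in which fragmented RNA is pulled down with an anti-m6A antibody (IP) and compared with RNA set aside before the pull-down (input). The authors state that this method cannot tell m6A from the related mark m6Am with certainty. That limit applies to every peak here, those in the 5′UTR included. T24 is a cisplatin-sensitive human bladder cancer cell line, and T24R2 is a resistant line made from T24 by serial exposure to the drug and kept in it. Both were labelled as wild type and were harvested at day 3 of confluence, with 5 replicates of each line for IP and for input, 20 samples in all. The analysis used the 10 lists of peaks called for the IP libraries against their inputs, and T24R2 stands for a single derived line. The labels do not say that replicates were separate cultures, so the p-values measure the spread between these samples, which may be technical.

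EGFR, ERBB2 (HER2) and ERBB3 are receptor tyrosine kinases that signal as pairs after a ligand binds; ERBB2 has no known ligand of its own, and ERBB3 has little kinase activity and relies on a partner. HB-EGF, TGF-alpha, epiregulin and amphiregulin are made as membrane-bound precursors that metalloproteases such as ADAM17 release to activate EGFR, while ERRFI1 (MIG6) binds and blocks the EGFR kinase domain and LRIG1 promotes receptor degradation. In urothelium and bladder cancer this pathway is known for its part in growth and repair, and m6A is known to be placed on mRNA by the METTL3 and METTL14 methyltransferase, mostly near stop codons and in long exons.

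The sequences under summits seen in 2 or more libraries show where the methylated adenosine could lie; not every such place is printed. The consensus known for this methyltransferase is DRACH, 5 bases with A, G or T, then A or G, then A and C, then A, C or T, the central A being the methylated base. Each window below is the DRACH that had the most summits within 50 nt, in capitals, with the bases on each side up to a total of 29, read on the transcript strand from hg38 with GENCODE 44 MANE Select exons.
EGFR, start of the 3′UTR, chr7:55205637-55205665, plus strand: ccctaaaaatccAGACTctttcgataccc
EGFR, further into the 3′UTR, chr7:55206255-55206283, plus strand: gaattcttccttAGACTtacttttgtaaa
ERBB2, coding part of exon 27, chr17:39727854-39727882, plus strand: accccgagtactTGACAccccagggagga
ERBB2, 3′UTR, chr17:39728396-39728424, plus strand: gggagtgtctaaGAACAaaagcgacccat
HBEGF, 3′UTR, chr5:140333883-140333911, minus strand: ggaaagatttgtGAACTggaagaaagcaa
TGFA, 3′UTR, nearer to the stop codon, chr2:70450652-70450680, minus strand: ggttattcagtgTGACCtagagaagaaat
TGFA, 3′UTR, farther from the stop codon, chr2:70450358-70450386, minus strand: aatatcacatgaAGACCctagctttaaga
ERRFI1, exon 4, upstream site, chr1:8014046-8014074, minus strand: tagctcagatacAGACTtccttttagaag
ERRFI1, exon 4, downstream site, chr1:8013371-8013399, minus strand: accaccatacctGGACAaatatgaaaaat
LRIG1, exon 19, chr3:66380436-66380464, minus strand: gttgtatcacccGGACTccacagagctac
LRIG1, exon 1, coding part, chr3:66500245-66500273, minus strand: cacttgcgctggGGACTcgctggactgcg
In EGFR the window at the start of the 3′UTR had 7 of 10 summits within 50 nt, and the window further downstream had the remaining pair of distant summits. The ERBB2 coding window had 5 of 12, and the ERBB2 3′UTR window had 2, both in T24R2. The LRIG1 exon 1 window had 3 of 6, all in T24R2. Windows are not printed for 2 T24 summits of ERBB2 nearer to the stop codon, for ERBB2 exon 26 and for the 5′UTR of LRIG1. Both EGFR windows and the upstream ERRFI1 window carried the same 5 letters, AGACT, and LRIG1 carried GGACT in exon 19 and in exon 1. In HBEGF, in the upstream ERRFI1 site and in LRIG1 exon 19 a single window had a summit within 50 nt in all 10 libraries. The last 2 of these sites lie in coding sequence, and the stretch below holds every one of their summits with 8 bases added on each side.
ERRFI1, exon 4, all summits of the upstream site, chr1:8014021-8014111, minus strand: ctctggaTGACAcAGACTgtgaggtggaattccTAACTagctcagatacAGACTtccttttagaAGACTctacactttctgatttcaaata
LRIG1, exon 19, all summits, chr3:66380409-66380488, minus strand: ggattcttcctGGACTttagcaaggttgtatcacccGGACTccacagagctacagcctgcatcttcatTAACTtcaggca
The ERRFI1 stretch of 91 bases held 5 DRACH and the LRIG1 stretch of 80 bases held 3, so the summit alone does not single out an adenosine. Of the 83 summits that fell on a MANE Select transcript, 79 had a DRACH within 50 nt (95.2%), beside 90.8% of the 141048 exonic summits of all protein-coding genes. The search covered the transcript strand only. A match is a description of the letters and not a measured site.

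**Figure D1:**
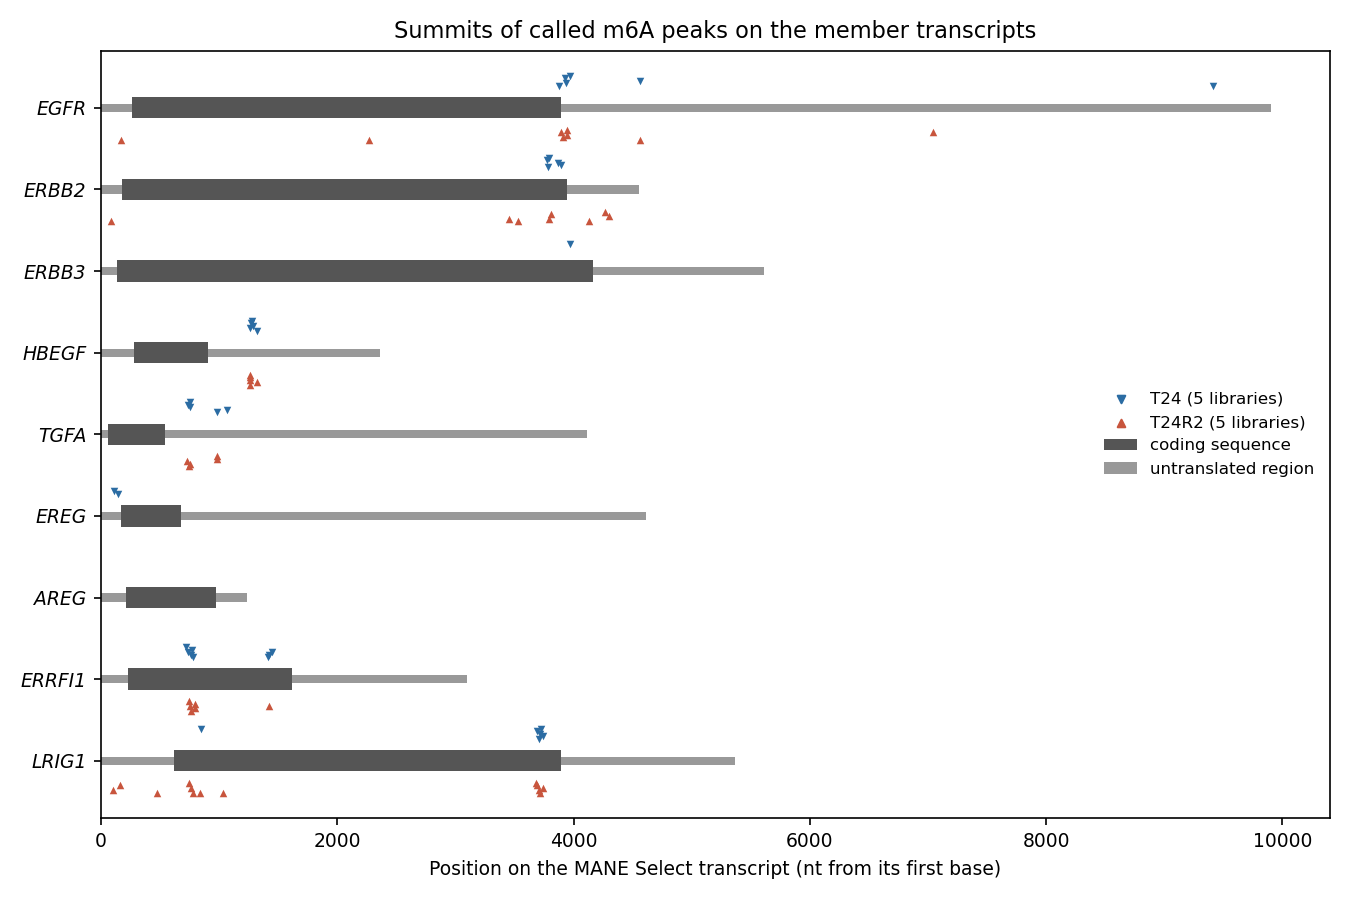
Position of every called summit (horizontal axis, nucleotides from the first base of the MANE Select transcript) on each gene, with T24 summits above and T24R2 summits below the transcript, 5 libraries each; thick bars are coding sequence and thin bars untranslated regions. Most summits gather at the stop codon in EGFR, and in ERBB2 they lie on both sides of it, none nearer than 44 nt. Summits lie in the 3′UTR in HBEGF and TGFA, in coding sequence in ERRFI1 and mostly in coding sequence in LRIG1. AREG has none, and the LRIG1 first exon has summits of T24R2 alone.

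EGFR, ERBB2, HBEGF, TGFA, ERRFI1 and LRIG1, 6 of the 9 genes, had an exonic region called in all 10 libraries. Over all 19061 protein-coding genes, 48.6% had at least 1 exonic region and 26.9% had a region in all 10 libraries. Among the 83 summits on MANE Select transcripts, 42 lay in coding sequence, 34 in the 3′UTR and 7 in the 5′UTR. Of these summits 56.6% were within 400 nt of the stop codon, beside 36.1% of all exonic summits; both shares are descriptions, since the genes were not drawn at random.

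The lists held 17203 to 22901 peaks in T24 and 22671 to 33120 in T24R2. In T24 the replicates held 9, 8, 8, 6 and 7 peaks of the genes, and in T24R2 they held 7, 8, 9, 8 and 14. Scaled to 10000 peaks of the list, T24 had 3.77 ± 0.823 and T24R2 had 3.52 ± 0.520 (mean ± SD, n = 5 each), a difference smaller than the spread within either line. With 17203 peaks kept in each library the direction turned, to 4.07 ± 0.581 in T24 and 4.42 ± 0.318 in T24R2. T24R2 replicate 5, the longest list, also held 4 of the 8 regions that were called in a single library.

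Fold enrichment, the ratio of IP over local input that the authors' peak caller gave each peak, was turned into a percentile within each library's own list, because fold values depend on a library's depth and the depth is unknown. A percentile of 50 marks the middle peak of a list. The regions called in all 10 libraries, 9577 in the series, were then compared between lines with limma (T24R2 minus T24, two-sided, Benjamini-Hochberg adjustment over all 9577). Across all these regions 0.731% were called higher in T24R2 and 0.167% lower at an adjusted p below 0.05, the median difference was 4.84 percentage points, and 64.4% were higher in T24R2. None of the 6 member regions was called; 1 had an unadjusted limma p below 0.05, in the direction in which 10.8% of all regions did. By the exact permutation test, adjusted in the same way, no region of the 9577 was called, with 1332 at an unadjusted p below 0.05. The smallest p this permutation test can give is 0.00794, and too few regions were that low for any to be called. Its adjusted p-values therefore decide nothing about a single region.

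EGFR encodes the receptor that HB-EGF, TGF-alpha, epiregulin and amphiregulin all bind. Its recurrent region spanned 1558 bases of exon 28, the last exon, at chr7:55205201-55206758 and crossed the stop codon into a 3′UTR of 6011 nt. Of its 10 summits, 8 lay between 19 nt before and 74 nt after the stop codon. The other 2 lay 668 and 669 nt after it, in T24R2 replicate 5 and T24 replicate 3. The fold percentile was 63.7, 18.1, 80.1, 49.9 and 4.51 in T24 replicates 1 to 5, and 19.9, 34.0, 45.7, 27.1 and 62.4 in T24R2. The T24 libraries ran from near the bottom to the upper part of their lists, and every T24R2 value fell within that range. The difference was -5.44 percentage points with a standard error of 14.2 (95% interval -36.6 to 25.7, limma adjusted p = 0.906), so a shift of either sign and of considerable size could not be told from none. It turned to 3.77 without T24 replicate 3 and to 9.87 by the percentile of −log10 q. The −log10 q is the peak caller's measure of significance, and ranked by it the same peaks stood higher in every library than by fold, at percentiles of 28.0 to 95.0 in T24 and 81.1 to 89.3 in T24R2.

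EGFR had 4 further exonic regions, each called in 1 library. They lay in the 5′UTR and in exon 17 in T24R2 replicate 5, and in the distal 3′UTR 3154 nt after the stop codon in T24R2 replicate 2 and 5522 nt after it in T24 replicate 1. Their fold percentiles were 1.38 to 19.1, at the low end of the lists. An intronic region of EGFR, 1400 bases long and 369 bases into intron 1 at chr7:55019734-55021133, was called in all 10 libraries at fold percentiles of 5.16 to 55.6. It differed by -9.20 percentage points between lines (limma adjusted p = 0.735).

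ERBB2 encodes the receptor that partners the others and is the target of HER2-directed drugs. Its recurrent region, chr17:39727311-39728568, covered exons 26 and 27, the last of the gene, with the coding end and the 3′UTR. Fold percentiles were 56.3, 68.2, 36.9, 84.7 and 75.8 in T24 replicates 1 to 5, and 73.8, 77.6, 92.0, 42.8 and 42.6 in T24R2. The ranges overlapped almost fully, and the difference was 1.38 percentage points (standard error 11.9, 95% interval -24.7 to 27.5, limma adjusted p = 0.974). The sign turned when only regions called in all 10 libraries were ranked (-3.66 percentage points) and in the other settings named in the closing section.

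The place of the strongest ERBB2 summit varied more in T24R2. In all 5 T24 libraries it lay in coding sequence, 168 to 44 nt before the stop codon. In T24R2 it lay in coding sequence in 2 libraries, 152 and 129 nt before the stop codon, and in the 3′UTR in 3, at 187 to 356 nt after it. T24R2 replicates 4 and 5 each had a separate peak in exon 26, at 486 and 411 nt before the stop codon, and the single peak of T24R2 replicate 2 extended over that exon. Peaks covered 791 to 837 bases of the region in T24 and 835 to 1258 in T24R2, where 4 of 5 libraries exceeded every T24 library. These are descriptions without a test, and list length moved with the line as given above; its part was not tested. A further ERBB2 region was called in T24R2 replicate 5 in exon 1, and another in T24R2 replicate 3 in an exon outside the MANE Select transcript that PGAP3 shares.

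ERBB3, the receptor for neuregulins, had 1 peak in the series. It lay in exon 28 in T24 replicate 3, 196 nt before the stop codon, at a fold percentile of 14.0. Its −log10 q of 2.12, close to the lowest value of 2.00 in the lists, stood at a percentile of 0.738. With 1 of 5 libraries against 0 of 5, no difference between the lines was detectable.

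**Figure D2:**
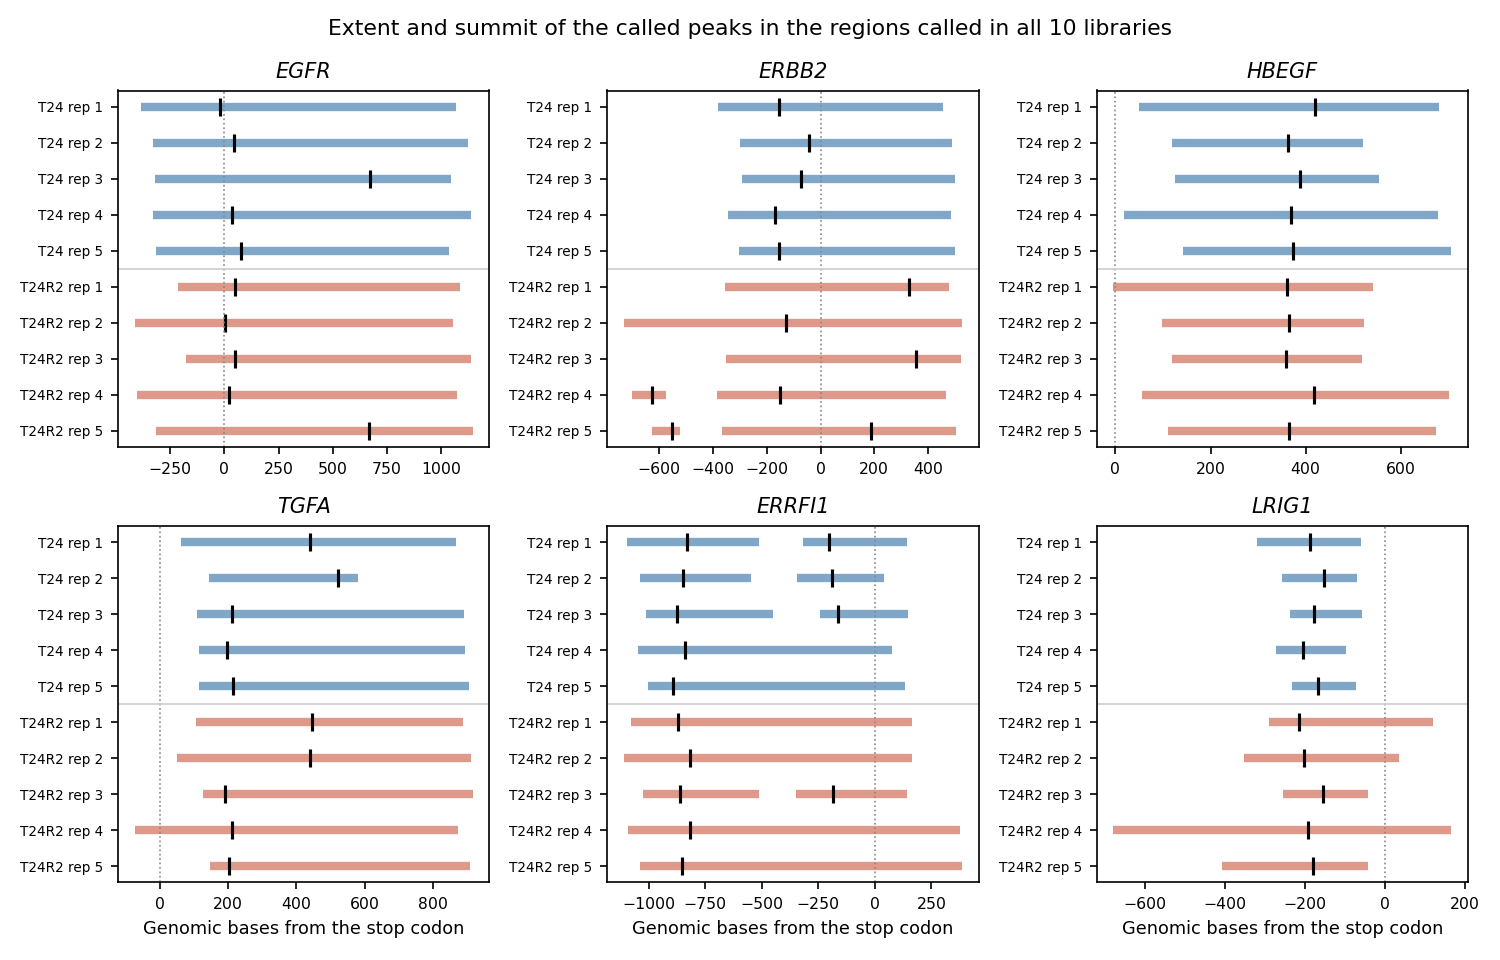
Called peaks (bars) and their summits (black marks) in the 6 recurrent regions, in genomic bases from the stop codon in the direction of transcription (dotted line, negative values upstream), with 1 row for each of the 5 T24 libraries in blue and the 5 T24R2 libraries in red. Summits of HBEGF and LRIG1 stay in place across libraries, those of ERBB2 and TGFA fall in separate places, and ERRFI1 is split into 2 peaks in 3 T24 libraries and 1 T24R2 library.

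HBEGF encodes HB-EGF, a ligand of EGFR and ERBB4 that is also an early response gene in stressed epithelium. Its region, chr5:140333595-140334305 on the minus strand, reached back to the stop codon, and its 10 summits lay in the 3′UTR of exon 6, within 359 to 419 nt after the stop codon. The fold percentile was 63.9, 55.0, 85.8, 67.7 and 44.4 in T24 replicates 1 to 5. In T24R2 it was 98.9, 99.5, 46.9, 81.2 and 94.5. In T24R2, 3 libraries lay above every T24 library and ranked HBEGF among the strongest peaks of the list, while T24R2 replicate 3 lay near the lowest T24 value. In fold enrichment the T24 peaks were 6.29 to 12.7 and the T24R2 peaks 6.23 to 27.7. The difference of 20.8 percentage points (standard error 11.3, 95% interval -3.91 to 45.5) did not pass the test (limma adjusted p = 0.444; exact permutation p = 0.135). Without T24R2 replicate 3 it was 30.1. By the percentile of −log10 q the sign turned, to -6.00 percentage points.

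TGFA encodes TGF-alpha, the EGFR ligand that many carcinomas make for their own use. The summits of its region, chr2:70449944-70450936 on the minus strand, all lay in the 3′UTR of exon 6, in 2 places, and the peak of T24R2 replicate 4 also ran upstream past the stop codon. In all, 6 summits were 189 to 213 nt after the stop codon, in 3 libraries of each line, and 4 were 439 to 523 nt after it, in 2 libraries of each line. Fold percentiles were 36.5, 44.7, 16.3, 42.1 and 10.9 in T24 replicates 1 to 5, and 34.7, 69.0, 62.7, 52.4 and 81.4 in T24R2. In T24R2, 4 libraries lay above every T24 library, and T24R2 replicate 1 lay among the T24 values. The T24 mean was 30.1 ± 15.4 and the T24R2 mean 60.0 ± 17.6 (SD, n = 5 each).

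The difference was 29.9 percentage points (standard error 10.1, 95% interval 7.76 to 52.1), larger than 94.3% of the differences of all 9577 regions. It was the largest of the 6 regions on this scale. HBEGF exceeded TGFA by rank among regions called in all 10 libraries (25.8) and by log2 of fold enrichment (0.668 against 0.457). By the percentile of −log10 q, LRIG1 (14.3), EGFR (9.87) and ERBB2 (8.87) exceeded it. The unadjusted limma p was 0.0125 and the exact permutation p 0.0317. After adjustment over all regions the limma test was not passed (limma adjusted p = 0.200). The permutation test (permutation adjusted p = 0.290) could call no region, because too few reached its smallest possible p of 0.00794. Leaving out each library in turn gave 24.6 to 36.3. The difference shrank to 17.6 percentage points when only regions called in all 10 libraries were ranked, and to 7.98 by the percentile of −log10 q.

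EREG, which encodes epiregulin, had 1 region in the 5′UTR of exon 1 at chr4:74365160-74365361. It was called in T24 replicates 1 and 2, at fold percentiles of 61.4 and 15.4, and in no T24R2 library (two-sided Fisher's exact p = 0.444). AREG, which encodes amphiregulin, had no exonic or intronic peak in any library. The lists do not show whether an uncalled transcript was unmethylated or too scarce to be called.

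ERRFI1 is induced by EGFR signalling and its product blocks the receptor. Its region, chr1:8012827-8014321 on the minus strand, ran from the long coding part of exon 4, the last exon, into the 3′UTR, and all its summits lay in coding sequence. In each of the 10 libraries a summit lay 891 to 817 nt before the stop codon. A further summit 202 to 164 nt before the stop codon was called as a separate peak in T24 replicates 1, 2 and 3 and in T24R2 replicate 3; in the other libraries 1 wide peak covered both places. Peaks covered 875 to 1138 bases in T24 and 1005 to 1470 in T24R2, and 4 T24R2 libraries exceeded every T24 library.

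The fold percentile of ERRFI1 was low, at 11.6, 45.5, 6.92, 34.9 and 30.3 in T24 replicates 1 to 5 and 24.3, 51.1, 39.1, 45.8 and 49.8 in T24R2. In T24, 2 libraries lay below every T24R2 library and the rest overlapped. The difference was 16.2 percentage points (standard error 8.92, 95% interval -3.34 to 35.7, limma adjusted p = 0.452), and 3.25 when only regions called in all 10 libraries were ranked. By −log10 q the same peaks stood higher in every list, at percentiles of 76.6 to 97.8 in T24 and 94.6 to 99.2 in T24R2. The value of 76.6 was that of T24 replicate 3, and the next in T24 was 91.2.

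LRIG1 encodes a transmembrane protein that lowers receptor levels. Its recurrent region, chr3:66380098-66380944 on the minus strand, lay at the coding end in exon 19, the last exon, with all 10 summits 215 to 152 nt before the stop codon. All 10 summits also lay in exons of SLC25A26, which overlaps LRIG1 there, and since the lists carry no strand the signal cannot be told apart between these genes. Fold percentiles were 28.1, 54.1, 62.3, 98.7 and 86.4 in T24 replicates 1 to 5, and 78.6, 62.4, 45.7, 63.6 and 84.1 in T24R2. The T24 values spanned all the T24R2 values, and the difference was 0.989 percentage points (standard error 12.8, 95% interval -27.1 to 29.1, limma adjusted p = 0.982), which turned to -10.4 when only regions called in all 10 libraries were ranked.

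Peaks of this region were wider in T24R2. They covered 262, 190, 181, 176 and 162 bases in T24 replicates 1 to 5, and 410, 388, 214, 847 and 368 in T24R2. In T24R2, 4 libraries exceeded every T24 library. The median width of all peaks in a list was 186 to 324 bases in T24 and 202 to 353 in T24R2; its part in the widths in LRIG1 was not tested.

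The first exon of LRIG1 gave the only member region with exonic summits in every library of 1 line and in none of the other. Of the 6 exonic summits in chr3:66499982-66501017, 3 lay in the 5′UTR and 3 in the coding start, and at least 1 was present in each of the 5 T24R2 libraries and in no T24 library (exact p by Fisher's two-sided test 0.00794, the smallest that 5 against 5 allows; adjusted p = 0.256). Among all pairs of a gene and a region, the same held for 2.17%, and the reverse, every T24 library and none of T24R2, for 0.926%. With these shares at the smallest possible p, no pair could pass after adjustment. The T24R2 summits did not share 1 place. Those in coding sequence were in replicates 1, 3 and 5, and those in the 5′UTR in replicates 2, 4 and 5. The strongest peak of a library in this region stood at fold percentiles of 48.1, 17.3, 36.1, 65.6 and 76.1 in T24R2 replicates 1 to 5. In replicate 2 that peak had its summit outside the exon, and the peak with an exonic summit stood at 3.13.

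The contrast rests on how a library is counted. T24 replicate 5 had a peak of 56 bases at chr3:66499982-66500037, at a fold percentile of 58.4. The whole peak, and not only its summit, lay in the intron next to the MANE Select exon. It counts only because it overlapped the same merged region. Counted by overlap, the region was present in 1 of 5 T24 libraries and in all 5 of T24R2 (exact p by Fisher's test 0.0476, adjusted p = 0.517), and 7.11% of all regions were found more often in T24R2 at an unadjusted p below 0.05. By overlap none of the 17 member regions was specific to a line, beside 3.02% of all regions for T24R2 and 1.05% for T24. With −log10 q of at least 10 the first exon of LRIG1 was left with 3 T24R2 libraries and no T24 library (Fisher's exact p = 0.167). LRIG1 also had a region at exon 2 called in 2 libraries of each line, with an exonic summit in 1 of each. A further LRIG1 region lay in exon 4 in T24R2 replicate 5.

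**Figure D3:**
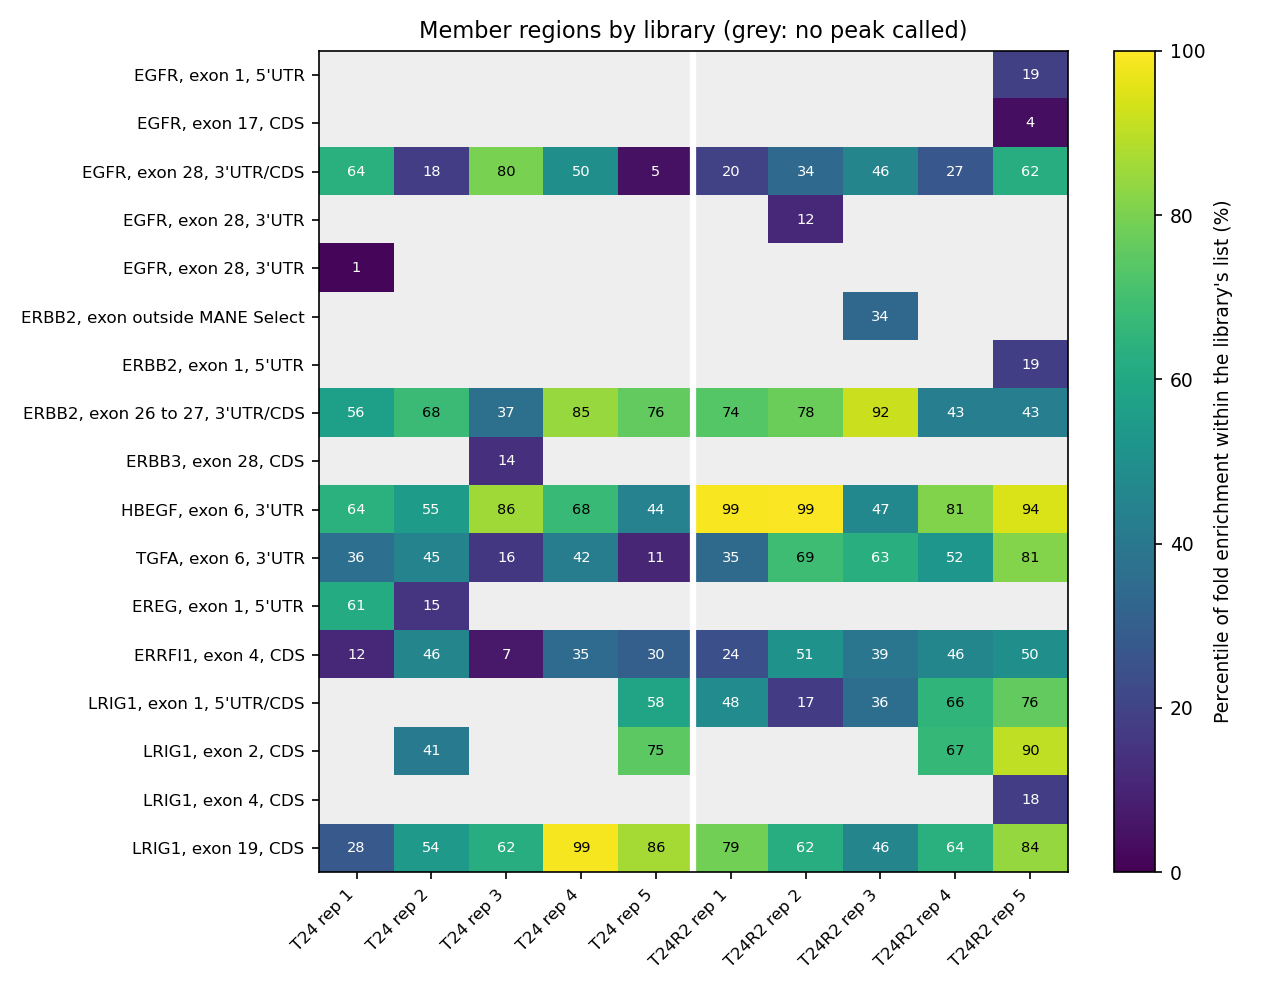
The 17 exonic regions of the genes (rows, by exon of the MANE Select transcript and the part of the transcript that holds the summits) in the 10 libraries (columns), coloured by the percentile of fold enrichment of the library's strongest peak overlapping the region, from 0 to 100, with grey for no peak. There are 6 rows filled in every library, 8 rows filled in 1 library, and the LRIG1 exon 1 row is filled in the 5 T24R2 libraries and T24 replicate 5.

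By mean fold percentile the order in T24 was LRIG1 (65.9 ± 27.7), ERBB2 (64.4 ± 18.6), HBEGF (63.4 ± 15.4), EGFR (43.2 ± 31.4), TGFA (30.1 ± 15.4) and ERRFI1 (25.9 ± 16.2), each mean ± SD with n = 5. No gap between neighbours in this order exceeded the larger of their SDs. In T24R2 the order was HBEGF (84.2 ± 22.1), LRIG1 (66.9 ± 15.1), ERBB2 (65.8 ± 22.1), TGFA (60.0 ± 17.6), ERRFI1 (42.0 ± 10.9) and EGFR (37.8 ± 16.7). Only the gap of 18.0 between TGFA and ERRFI1 exceeded the larger SD, and by little. The ligands TGFA and HBEGF and the inhibitor ERRFI1 had higher means in T24R2 (HBEGF not by −log10 q), and the receptors EGFR and ERBB2 and the inhibitor LRIG1 differed by under 6 percentage points on this scale, but none of these differences passed the test. On other scales these last differences were larger: EGFR differed by -12.8 by rank among regions called in all 10 libraries and by -18.1 with 17203 peaks kept in each library, and LRIG1 by -10.4 and -9.22 on these scales and by 14.3 by the percentile of −log10 q. The 6 differences had a median of 8.78 percentage points beside 4.84 over all regions. On the rank among regions called in all 10 libraries, where the median of all regions was 0.070, 3 of the 6 were higher in T24R2 in place of 5.

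**Figure D4:**
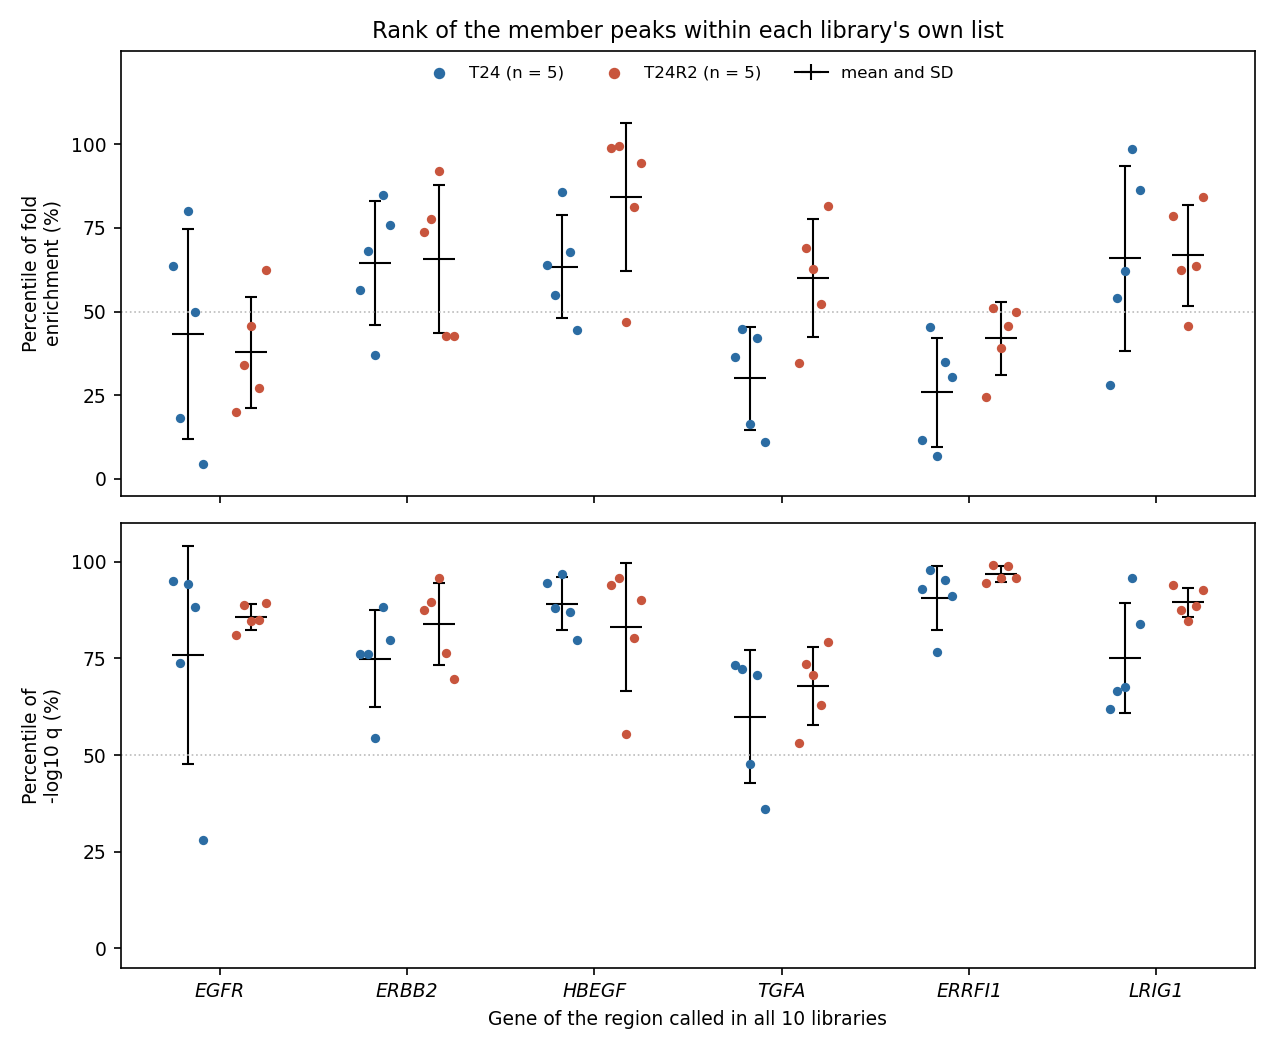
Percentile of fold enrichment (top) and of −log10 q (bottom) within each library's list for the 6 recurrent regions; points are libraries (5 of T24 in blue, 5 of T24R2 in red), and black marks are means with SD. The lines overlap in every gene on both scales; ERRFI1 lies low by fold, from 6.92 to 51.1, and high by −log10 q, from 76.6 to 99.2.

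**Figure D5:**
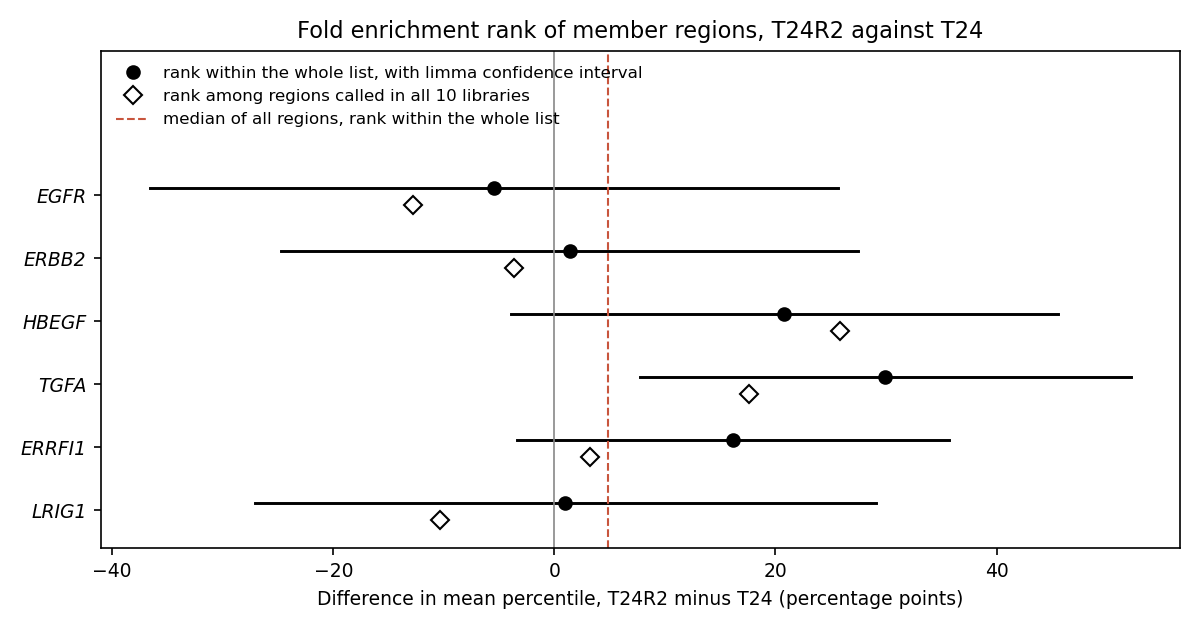
Difference in mean fold percentile between T24R2 and T24 (horizontal axis, percentage points) for the 6 recurrent regions, as filled points with 95% limma intervals, and by rank among regions called in all 10 libraries as open diamonds; the dashed line is the median of all 9577 regions, 4.84. The interval of TGFA alone, 7.76 to 52.1, leaves out 0, before adjustment over all regions.

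Of the other receptors and ligands, ERBB4 had 4 exonic regions, NRG1 3, NRG2 4, EGF, EPGN and NRG4 1 each, and BTC and NRG3 none. EGF, the founding ligand of EGFR, had a region around its stop codon at chr4:110011339-110011589 in all 5 T24R2 libraries, at fold percentiles of 26.5, 49.1, 39.7, 10.6 and 40.4, and in no T24 library (Fisher's exact p = 0.00794, adjusted p = 0.195). After adjustment Fisher's test could call no region of the series. EPGN, which encodes epigen, was called in 4 T24R2 libraries and no T24 library. NRG4 was called in 3 T24R2 libraries, 2 of them with an exonic summit, and no T24 library, in a region that FBXO22 overlaps. NRG1 exon 1 was called in 3 T24 libraries and 1 of T24R2. For NRG2 the counts in T24 and T24R2 were 5 and 3 in exon 1, 4 and 3 at exon 2 (3 and 2 with an exonic summit), and 1 and 0 in exon 9. ERBB4, a neuregulin receptor, had a region at exon 1 called in 1 T24 and 4 T24R2 libraries, with an exonic summit in 0 and 3 of them. NRG2 had a region over its stop codon that ranked at 99.0 or above in all 10 lists, and was the top peak of T24R2 replicate 3. It differed by 0.555 percentage points (limma adjusted p = 0.976); an exon of ENSG00000250692 overlaps it. NRG1 had a region in all 10 libraries in exon 12, at 64.5 to 98.2.

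Among 45 other genes of the pathway, 40 had an exonic region and 27 had 1 in all 10 libraries, beside 48.6% and 26.9% of all protein-coding genes. The genes were not drawn at random, so these counts are descriptions. Of their 107 regions 3 were specific to T24R2 and 0 to T24, beside 3.02% and 1.05% of all regions. Of the 34 regions in all 10 libraries, limma called 0 in either direction, beside 0.731% higher and 0.167% lower among all 9577. The median difference was 4.64 percentage points in further receptors and ligands (2 regions) and 3.89 in sheddases and their regulators (4 regions). It was 1.09 in adaptors and effectors (13 regions) and 0.383 in receptor turnover genes (15 regions). Each of these was below the median of 4.84 over all 9577 regions. The sheddases and their regulators had 12 regions, 4 of them called in all 10 libraries. The adaptors and effectors had 38 regions, with 1 specific to T24R2, in exon 6 of GRB2, the adaptor that links receptors to RAS; its fold percentiles were 0.265 to 5.84, at the bottom of the lists. The group of receptor turnover genes had 43 regions, with 1 specific to T24R2, in exon 19 of the ubiquitin ligase NEDD4 at 0.346 to 10.7. CBL, the ubiquitin ligase that acts on activated EGFR, was named after its values were seen. Its region stood at 57.9 to 87.4 in T24 and 30.5 to 64.0 in T24R2, a difference of -25.2 percentage points. The unadjusted limma p was 0.0118 and the limma adjusted p 0.197. CBL had the only region of these 34 with an unadjusted limma p below 0.05 and was picked for it. That p is therefore no support for a difference.

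The genes whose recurrent region followed EGFR most closely over the 10 libraries were FUNDC1 (Pearson r = 0.886), PKP2 (0.864) and HOXA7 (0.855), the highest of 5122 genes. The 10 points share libraries and therefore depth and list length. No p-value is given, as the genes were picked for this likeness.

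As a check of the labelled cell type, 4 of 15 urothelial or epithelial markers (KRT7, FOXA1, PPARG and UPK1A) had an exonic region in both lines, as did 4 of 5 mesenchymal markers and, of the leukocyte or endothelial markers, CD68 and PECAM1. KRT8, KRT19, KRT5, KRT20, UPK2, UPK3A, TP63, CDH1, EPCAM, FN1, PTPRC, CD3E and VWF had none; a missing peak does not show that a transcript is absent. KRT18 was called in 2 T24R2 libraries and no T24 library. In any library, 6 of 15 urothelial or epithelial, 4 of 5 mesenchymal and 2 of 6 leukocyte or endothelial markers had an exonic region. The share over all protein-coding genes was 48.6%. GATA3 and 1 region of VIM were specific to T24 and 1 region of SNAI2 to T24R2, as were 1.05% and 3.02% of all regions. FOXA1 ranked higher in T24R2, by 47.3 percentage points (limma adjusted p = 0.0189), a direction in which 0.731% of regions were called. Whether these differences in markers bear on the values above was not tested.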

How the data were processed

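MeRIP-seq peak lists of 10 IP libraries (T24 and T24R2, 5 each) were analysed, with groups and replicate numbers taken from the sample titles. Reads were aligned by the authors to hg38 with GENCODE 39, and uniquely mapped reads without duplicates were kept; the submitters' processing notes name STAR 2.7.0, SAMtools 1.10 and MACS2 3.0.0a6. Peaks of IP over input were called library by library, with no fragment model. For each peak the authors deposited a fold enrichment (the ratio of pull-down to local background), a −log10 p-value, a −log10 q-value (at least 2.00 in every list) and a score derived from the q-value. Their merged list of 43676 regions was used as deposited. The files hold no read counts, so sequencing depth is unknown, intervals based on depth are left out, and count tests of the kind the study used could not be run.

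Summits were placed on GENCODE 44 exons and on MANE Select transcripts. A region counted as called in a library if it shared at least 1 bp with any peak there, and its percentile there was that of its peak with the highest fold enrichment. Presence was compared by Fisher's exact test, two-sided, between the 5 libraries of each line, with Benjamini-Hochberg adjustment across the 43676 regions (or over all gene and region pairs for exonic summits). In this test 4021 regions had an unadjusted p below 0.05 and 0 an adjusted p below 0.05. The smallest p that 5 against 5 libraries allow is 0.00794, and too few regions reached it for any to pass after adjustment. The adjusted p-values of this test therefore decide nothing about a single region. Percentiles were compared with limma 3.58.1 in R 4.3.3 over the 9577 regions called in all 10 libraries, after a test on simulated data. Tables were made with Python 3.11.15, pandas 2.3.3, numpy 2.4.6 and scipy 1.17.1. The exact permutation test covered all assignments of the libraries to lines.

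The genes, the lists and the tests were chosen with earlier results of these data known. The genes named were the 9 members; each further receptor and ligand of the family; of the other pathway genes, those specific to a line or with an adjusted p below 0.05, at most 8; and the 3 genes most like EGFR. CBL was named outside this rule, after its values were seen. Alternatives were thresholds of 5 and 10 on −log10 q and of 4 on fold enrichment, the same number of peaks (17203) for each library, peaks that cover 50% or more of the region, a looser presence rule (4 or 5 libraries of a line against 0 or 1), MANE Select exons only, rank among regions called in all 10 libraries, log2 of fold enrichment, the percentile of −log10 q, the permutation test, the omission of each library in turn, and a replicate block. Counting only exonic summits was added after the data were seen. A marker gene of the lists is not reported here.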

Additional observations from a re-analysis of the deposited data

Results flagged for a closer look

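Each measure was looked at within each line for a library that stands apart from the other 4, by Dixon's ratio of the gap to the range (critical value 0.71 for 5 samples), in 29 groups; chance alone flags about 5% of groups, and 3 were flagged. T24R2 replicate 5 had 14 member peaks, where the other T24R2 libraries had 7 to 9; its list was also the longest, with 33120 peaks, and per 10000 peaks it was not flagged. In TGFA the peak of T24 replicate 2 covered 439 bases, where the other T24 libraries covered 782 to 808. In LRIG1 exon 19 the peak of T24 replicate 1 covered 262 bases, where the other T24 libraries covered 162 to 190.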

How the results depend on the processing

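No member region was called for its fold percentile under any alternative run, among which the permutation test could call no region at all. The number of member regions specific to a line was 0 and became 1, the LRIG1 first exon, under the looser rule of 4 or 5 libraries against 0 or 1 and when only exonic summits were counted; leaving out each library in turn gave 0 to 1, with 1 without T24 replicate 5. Differences in fold percentile that changed sign were those of ERBB2 and LRIG1 under the rank among regions called in all 10 libraries (-3.66 and -10.4 percentage points), under log2 of fold enrichment (-0.0793 and -0.24 on the log2 scale) and with 17203 peaks kept in each library (-6.59 and -9.22), and those of HBEGF (-6.00) and EGFR (9.87) under the percentile of −log10 q. Leaving out each library in turn gave -5.49 to 7.16 for ERBB2, -8.46 to 9.18 for LRIG1 and -15.1 to 3.77 for EGFR, where T24 replicate 3 turned the sign; it gave 16.1 to 30.1 for HBEGF and 11.4 to 21.1 for ERRFI1. Member peaks per 10000 differed by -0.258 (T24R2 minus T24), and by 0.349 with 17203 peaks kept in each library. The cause of these changes was not tested.

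The labels do not say whether same-numbered libraries were handled together. Their deviations from their line's mean correlated at -0.030 to 0.111, which does not settle it. Only for replicate 5 was the T24 library most like the T24R2 library of its own number. With the replicate block in the limma fit, 0 regions of the series were called, against 86 without it, and 0 member regions in both fits; the paired exact McNemar p of the LRIG1 first exon was 0.125, against a Fisher's exact p of 0.0476 without the block. The lists bear no read counts, so how far depth limited a call in any library is unknown.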
